A study of Mus musculus with 11 samples.

Results

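The genes described here are 46 genes of the proton pump, the lysosome and autophagy, taken by symbol from a table of read counts for 54532 genes in mouse pancreas. They are 8 subunits of the V1 sector and 6 subunits of the V0 sector of the vacuolar proton pump, 2 accessory proteins of the pump, 5 cathepsins, 6 lysosomal membrane proteins, 4 proteins of the lysosomal lumen, 2 transcription factors, 6 genes of the ATG8 family with its cargo receptor, and 7 genes of autophagosome formation. All 46 were found and all 46 passed the filter on low counts. The genes were chosen by name when their responses in these libraries were already known, so their values, calls and directions are given as a description and no p is printed for them.

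The vacuolar proton pump (V-ATPase) acidifies lysosomes and related vesicles. Its V1 sector hydrolyses ATP in the cytosol, and its V0 sector carries protons across the membrane. Autophagy encloses cytoplasm in a double membrane, the autophagosome, which fuses with lysosomes so that cathepsins and other acid hydrolases digest the content. In pancreatic acinar cells, which store digestive zymogens, cathepsin B can activate trypsinogen inside the cell and cathepsin L can inactivate it, and vacuoles with undigested content are a known feature of experimental pancreatitis.

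The libraries came from whole pancreas of C57BL/6JRj mice, 1 library per mouse by the labels. The groups were 3 mice aged 18 months given caerulein (aged caerulein), 2 mice aged 18 months left untreated (aged untreated, numbered 2 and 3), 3 mice aged 7 weeks given caerulein (young caerulein), and 3 mice aged 7 weeks left untreated (young untreated). Caerulein, an analogue of the secretory hormone cholecystokinin that injures acinar cells in excess, was injected intraperitoneally at 125 µg/kg body weight, 4 times at hourly intervals. The untreated mice are labelled as given no treatment, and no vehicle injection is named. The treated libraries carry a 5-hour label, but the design text can be read as an earlier time, so no time since the first injection is stated here.

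Total counts ranged from 14223190 to 26537091 per library. All 10 acinar markers had counts in every library, with summed levels of 245000 to 307000 CPM in aged caerulein, 514000 to 635000 in aged untreated, 245000 to 282000 in young caerulein and 361000 to 595000 in young untreated mice. CPM here is the usual depth-scaled count, with each library total scaled by the TMM method. The library of young untreated mouse 2 stood apart: its summed markers were 120 CPM for B cells, 78.9 CPM for T cells and 112 CPM for adipocytes, against at most 1.15, 1.14 and 7.65 CPM in the other 10 libraries. Its 11 macrophage markers summed to 372 CPM, against 93.2 to 114 CPM in aged caerulein, 67.5 to 72.8 CPM in aged untreated, 52.2 to 99.0 CPM in young caerulein and 49.1 to 64.2 CPM in the other young untreated mice. In whole tissue, fewer cells of a type and less RNA per cell cannot be told apart. Results that rest on this library are given with and without it.

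A gene is called higher or lower at an adjusted p below 0.05 in edgeR's quasi-likelihood test over all 14113 genes that passed the filter. After caerulein 15 of the 46 genes were called higher in aged mice, 11 were called lower and 20 were not called. In young mice 13 were called higher, 13 lower and 20 not called. The background was high: 56.5% of the 46 genes were called at each age, against 48.2% of all genes tested in aged mice (27.0% higher, 21.2% lower) and 52.3% in young mice (27.5% higher, 24.7% lower), and nothing is read from these shares because the genes were chosen with these comparisons known. The median log2 fold change of the 46 genes was 0.014 in aged and -0.06 in young mice, and that of all genes tested was 0.07 and -0.06. Both directions occurred within most functional groups. The comparisons at the 2 ages share no library, and 12 genes were called higher at both ages, 10 lower at both and 0 in opposite directions, against 22.6%, 16.4% and 0.0638% of all genes tested.

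The direction of the smaller decreases depended on how libraries were scaled. With library totals in place of TMM factors, the median of all genes moved by 0.615 in aged and by 0.497 in young mice on the log2 scale, and 26 of the 46 genes were called higher and 1 lower in aged mice and 24 higher and 1 lower in young mice. Of all genes, 38.6% were then called higher and 7.61% lower in aged mice and 37.7% higher and 8.99% lower in young mice. Changes below are relative to the TMM scale, and called decreases that turn positive with library totals are named as such. With library totals, 16 of the 23 negative aged values and 15 of the 26 negative young values were positive, 5 and 4 of which had been called. The summed acinar markers given above were lower in every caerulein library than in any untreated library, and their part in the scaling was not tested. Of these markers, Ptf1a went the other way in young mice, at 35.4 to 40.6 CPM with caerulein against 6.75 to 17.4 CPM untreated. It was not called in aged mice, and the other markers of the list were called lower at both ages. Without the library of young untreated mouse 2, the counts were 16 higher and 16 lower in aged mice and 14 higher and 15 lower in young mice, while 58.3% of all genes were called in aged and 57.6% in young mice.

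**Figure D1:**
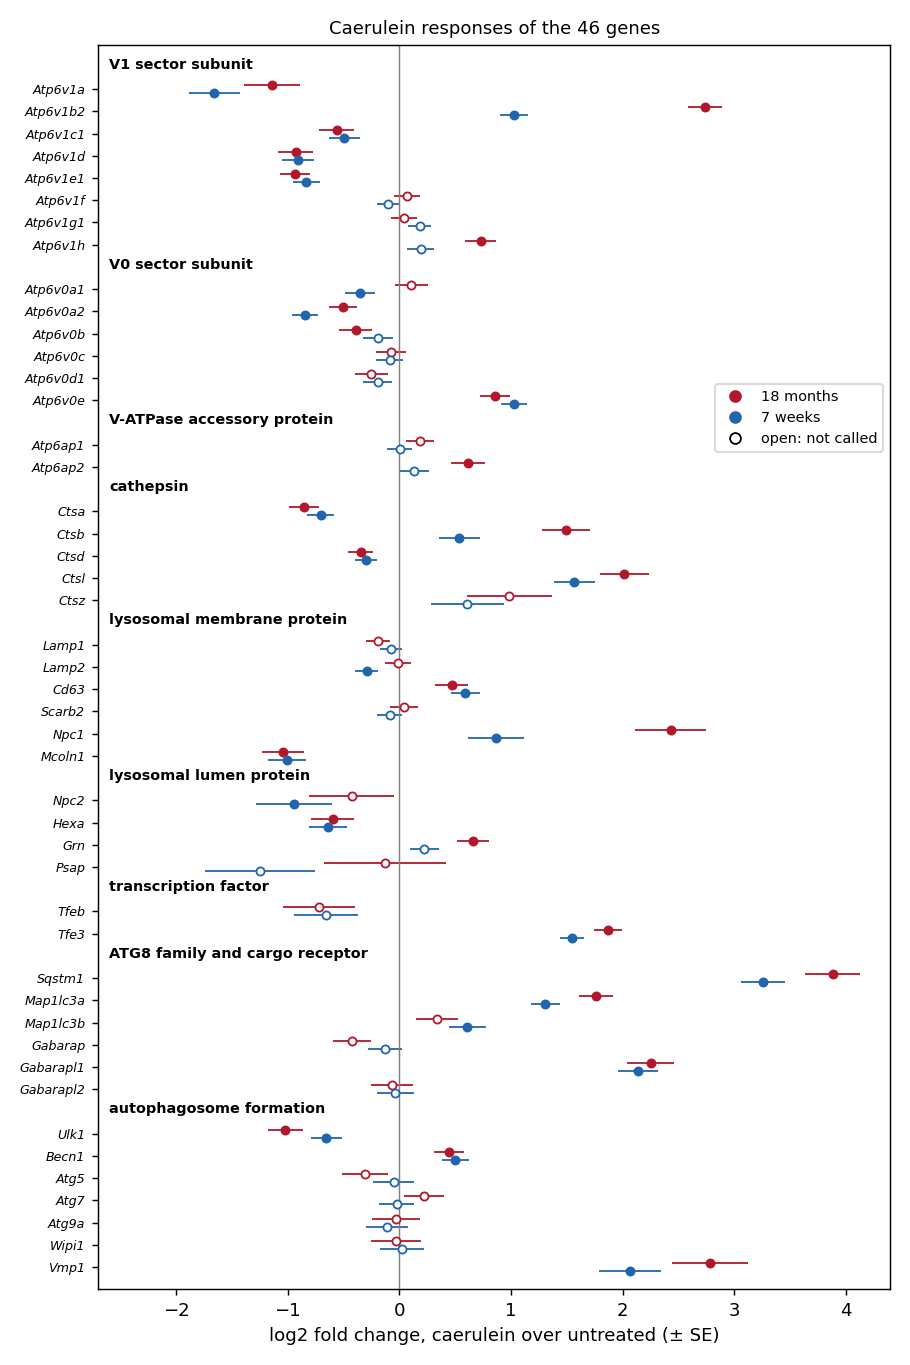
Log2 fold change of caerulein over untreated for each of the 46 genes (x axis, ± SE), grouped by role, with aged mice (18 months, red) above young mice (7 weeks, blue) in each row; filled points were called and open points were not. Sqstm1, Vmp1, Gabarapl1, Ctsl, Tfe3 and Map1lc3a lie to the right at both ages, Atp6v1b2 and Npc1 lie further right in aged mice, and several pump subunits lie left of 0.

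The V1 subunits did not move as a block. Atp6v1b2, the B2 isoform of the nucleotide-binding B subunit (chr8:69088646-69113711 on mm10, plus strand), was called higher at both ages. It had 105, 139 and 128 CPM in aged caerulein mice, against 19.2 and 17.9 CPM in aged untreated mice. It had 36.4, 43.5 and 40.6 CPM in young caerulein mice, against 19.3, 20.3 and 19.6 CPM in young untreated mice. The groups did not overlap at either age, and the 5 untreated libraries of both ages lay within a narrow range, with the unusual library of young mouse 2 among them. The log2 fold change was 2.74 ± 0.16 (SE, 6.67-fold) in aged mice and 1.02 ± 0.13 (2.04-fold) in young mice.

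Atp6v1a, the catalytic A subunit that pairs with the B subunit (chr16:44085402-44139705, minus strand), was called lower at both ages. It had 4.01, 6.14 and 7.33 CPM in aged caerulein mice, against 12.4 and 13.1 CPM in aged untreated mice. It had 4.23, 4.58 and 4.68 CPM in young caerulein mice, against 12.03, 18.3 and 12.1 CPM in young untreated mice. Every caerulein library was below every untreated library of its age, with log2 fold changes of -1.14 ± 0.25 in aged and -1.66 ± 0.23 in young mice. The ATPase head held 1 subunit gene with a higher and 1 with a lower transcript level.

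Atp6v1h, the regulatory H subunit (chr1:5070018-5162529, plus strand), was called higher in aged mice and not in young mice, and the difference between the ages is given further on. It had 29.8, 29.3 and 30.4 CPM in aged caerulein mice, against 18.6 and 17.4 CPM in aged untreated mice. It had 16.1, 19.5 and 19.1 CPM in young caerulein mice, against 17.6, 13.6 and 16.9 CPM in young untreated mice. The aged groups were apart and the young groups overlapped, with log2 fold changes of 0.73 ± 0.14 and 0.19 ± 0.12. Atp6v1d and Atp6v1e1, parts of the central and peripheral stalks, were called lower at both ages by similar amounts, -0.93 ± 0.16 and -0.94 ± 0.13 in aged mice and -0.91 ± 0.14 and -0.84 ± 0.12 in young mice. Atp6v1c1 was also called lower, at -0.56 ± 0.15 in aged and -0.49 ± 0.14 in young mice, but with library totals it was at 0.045 in aged and 0.000551 in young mice, and without aged untreated mouse 2 the aged value was -0.43 and not called. Atp6v1f and Atp6v1g1 were not called, with values between -0.10 and 0.18. Over the 11 libraries, the genes of the whole table whose log2 CPM was most like the mean of the 8 V1 subunits were Pggt1b, Xylt1, Gfi1, Man1a and Dock3, with Pearson r of 0.936, 0.920, 0.916, 0.910 and 0.896, which is a description across libraries that share treatment and age. That mean stands for no single subunit: the subunits' own r with it ran from -0.423 for Atp6v1g1 to 0.669 for Atp6v1a, with 0.0332 for Atp6v1b2.

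Among the V0 subunits, 1 was called higher and 2 lower at each age. Atp6v0e, a small subunit of the membrane sector (chr17:26676396-26699644, plus strand), had 21.2, 19.9 and 18.2 CPM in aged caerulein mice, against 10.3 and 11.5 CPM in aged untreated mice. It had 21.0, 24.3 and 25.7 CPM in young caerulein mice, against 11.8, 12.1 and 10.9 CPM in young untreated mice. The groups were apart at both ages, with log2 fold changes of 0.86 ± 0.13 and 1.03 ± 0.12. Atp6v0a2, an isoform of the a subunit found on Golgi and endosomal membranes, had 11.2, 11.8 and 13.0 CPM in aged caerulein mice, against 16.5 and 17.7 CPM in aged untreated mice. It had 10.3, 9.33 and 9.67 CPM in young caerulein mice, against 15.6, 18.3 and 18.6 CPM in young untreated mice. The log2 fold changes were -0.51 ± 0.13 in aged mice, where the value was 0.12 with library totals and -0.44 and not called without aged untreated mouse 3, and -0.85 ± 0.11 in young mice.

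The other a subunit isoform on the list, Atp6v0a1, was called lower in young mice, at -0.35 ± 0.13, and not in aged mice, at 0.11 ± 0.15. That call was lost with mouse number as a block (-0.35) and when any 1 of 6 libraries was left out, these being aged caerulein mouse 3, aged untreated mice 2 and 3, young caerulein mice 2 and 3 and young untreated mouse 1 (-0.36 to -0.30), and the value was 0.14 with library totals. Atp6v0b was called lower in aged mice, at -0.39 ± 0.15, and not in young mice, at -0.19 ± 0.13, with 0.22 in aged and 0.35 in young mice under library totals. Leaving out any 1 of the 8 libraries other than those of young untreated mice ended the aged call. Without young untreated mouse 2 it was called in young mice as well, at -0.39. Atp6v0c and Atp6v0d1 were not called, at -0.07 ± 0.13 and -0.25 ± 0.15 in aged and -0.09 ± 0.12 and -0.20 ± 0.13 in young mice. Without young untreated mouse 2, Atp6v0d1 was called lower at both ages, at -0.32 in aged and -0.35 in young mice.

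The accessory proteins had small fold changes. Atp6ap2, also known as the prorenin receptor, had 34.0, 31.5 and 29.0 CPM in aged caerulein mice, against 23.4 and 17.9 CPM in aged untreated mice. It had 23.8, 21.7 and 20.8 CPM in young caerulein mice, against 19.8, 18.1 and 22.9 CPM in young untreated mice. The aged groups were apart and the young groups overlapped, and the log2 fold change of 0.62 ± 0.15 in aged mice was called while 0.13 ± 0.13 in young mice was not. The aged call was lost without aged untreated mouse 3, at 0.45. Atp6ap1, an assembly partner of V0, was not called, at 0.18 ± 0.13 in aged and 0.0033 ± 0.11 in young mice, with 36.2, 38.9 and 36.0 CPM in aged caerulein, 32.3 and 33.0 CPM in aged untreated, 30.2, 27.4 and 24.6 CPM in young caerulein and 30.4, 24.9 and 26.8 CPM in young untreated mice.

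The cathepsins were split, with Ctsl and Ctsb called higher and Ctsa and Ctsd called lower at both ages. Ctsl, the cysteine protease cathepsin L (chr13:64359337-64370890, minus strand), had 512, 744 and 558 CPM in aged caerulein mice, against 149.2 and 149.9 CPM in aged untreated mice. It had 478, 435 and 458 CPM in young caerulein mice, against 165, 118 and 179 CPM in young untreated mice. No libraries of the compared groups overlapped, and the log2 fold changes were 2.02 ± 0.22 in aged (4.04-fold) and 1.57 ± 0.18 in young mice (2.97-fold).

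Ctsb, the cysteine protease cathepsin B (chr14:63122462-63145923, plus strand), had 237, 255 and 276 CPM in aged caerulein mice, against 96.3 and 85.7 CPM in aged untreated mice. It had 145, 151 and 144 CPM in young caerulein mice, against 82.6, 137 and 83.4 CPM in young untreated mice. The caerulein libraries were above the untreated ones at each age, but young untreated mouse 2 came close to the treated young mice. The log2 fold changes were 1.49 ± 0.22 in aged mice and 0.54 ± 0.18 in young mice, and without that mouse 1.43 ± 0.11 in aged and 0.77 ± 0.10 in young mice, both called. The young call was lost when any 1 young caerulein mouse, young untreated mouse 1 or young untreated mouse 3 was left out, with values of 0.40 to 0.55. Macrophages are rich in cathepsins, and the sum of the macrophage markers given above was higher in that mouse than in any other. Its members were mixed. Cd14 (15.3 to 23.6 CPM in aged caerulein, at most 1.92 CPM in young untreated mice), Cd163, Fcgr1 and Mrc1 reached higher levels in aged caerulein than in any young untreated mouse. The other markers of that list peaked among the young untreated mice. The part of these markers in the Ctsb values was not tested. Ctsb overlaps Fdft1 on the opposite strand over 774 bases, with 35417 and 3802 counts in all libraries.

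Ctsa, the carboxypeptidase cathepsin A, which also protects lysosomal beta-galactosidase and neuraminidase (chr2:164832873-164841032, plus strand), had 16.1, 18.4 and 17.2 CPM in aged caerulein mice, against 33.7 and 28.6 CPM in aged untreated mice. It had 20.9, 22.2 and 21.6 CPM in young caerulein mice, against 30.2, 39.5 and 35.6 CPM in young untreated mice. It was called lower, at -0.85 ± 0.14 in aged and -0.70 ± 0.12 in young mice, with no overlap at either age. Ctsd, the aspartic protease cathepsin D, was called lower, at -0.35 ± 0.11 in aged and -0.30 ± 0.10 in young mice, and these values were 0.27 and 0.19 with library totals. The aged Ctsd call was lost without aged caerulein mouse 1 or 2 or aged untreated mouse 2 or 3 (-0.36 to -0.32), and the young call without aged untreated mouse 2 or 3, young caerulein mouse 1 or 2 or young untreated mouse 1 (-0.30 to -0.26) and with mouse number as a block (-0.30). Ctsz, a cysteine carboxypeptidase, was not called at either age, at 0.98 ± 0.38 and 0.61 ± 0.33, with 29.2 to 34.3 CPM in young caerulein mice, against 35.9 CPM in young untreated mouse 2 and 11.97 and 14.3 CPM in the other young untreated mice. Without that mouse it was called higher at both ages, at 0.92 ± 0.14 in aged and 1.22 ± 0.14 in young mice, and with mouse number as a block it was called in young mice at 0.73 ± 0.26.

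**Figure D2:**
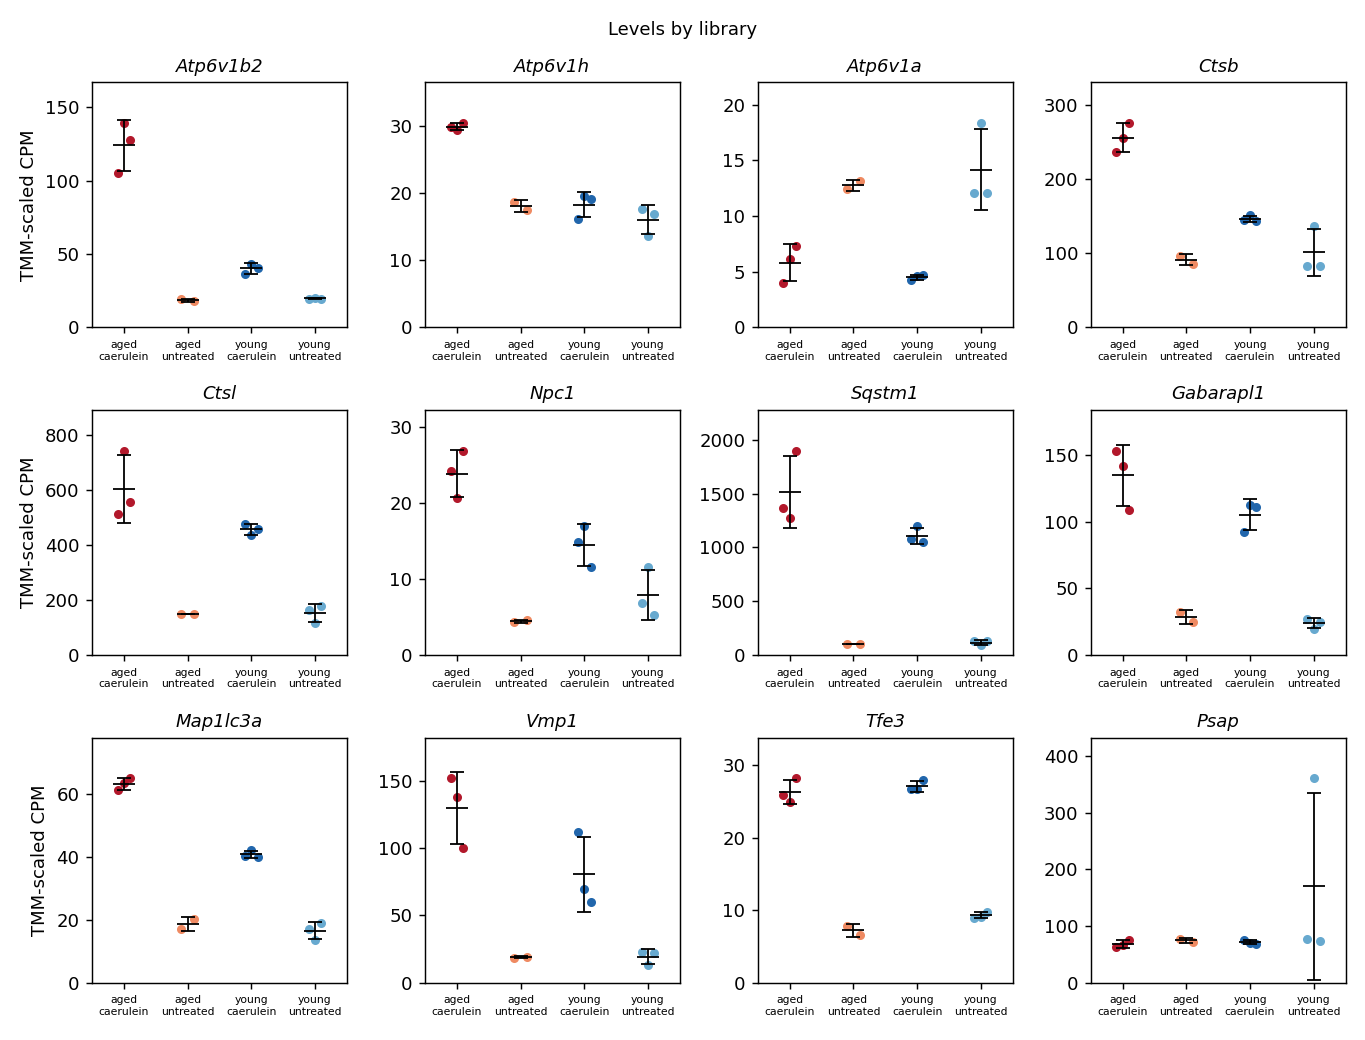
TMM-scaled CPM (y axis, linear from 0) of 12 genes in each library; points are libraries, long lines are group means and bars are SD, with 3 mice per group and 2 in aged untreated. Atp6v1b2 reaches 105 to 139 CPM in aged caerulein mice and 36.4 to 43.5 CPM in young caerulein mice, and the single high Psap point is young untreated mouse 2 at 361 CPM.

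Of the lysosomal membrane proteins, Npc1, the cholesterol exporter of the lysosome, was called higher at both ages. It had 24.2, 20.6 and 26.9 CPM in aged caerulein mice, against 4.29 and 4.55 CPM in aged untreated mice. It had 14.9, 17.0 and 11.6 CPM in young caerulein mice, against 6.80, 11.6 and 5.24 CPM in young untreated mice. The aged groups were far apart. Young caerulein mouse 3, at 11.59 CPM, lay just below young untreated mouse 2, at 11.63 CPM, so that the young groups overlapped. The log2 fold changes were 2.43 ± 0.32 in aged and 0.87 ± 0.25 in young mice, and 2.36 ± 0.20 and 1.22 ± 0.18 without young untreated mouse 2. The young call was lost without young caerulein mouse 2, at 0.73. Npc1 overlaps the gene Rmc1 on the opposite strand over 966 bases, with 3173 and 1655 counts in all libraries, and since the strand setting of the counting is not given, reads in that stretch cannot be assigned to 1 of them.

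Mcoln1, the calcium-releasing lysosomal channel TRPML1 (chr8:3500457-3515232, plus strand), was called lower at both ages. It had 5.76, 3.85 and 4.88 CPM in aged caerulein mice, against 10.7 and 9.32 CPM in aged untreated mice. It had 4.31, 4.82 and 4.78 CPM in young caerulein mice, against 8.99, 10.3 and 8.57 CPM in young untreated mice. The treated libraries were at 0.486 times the untreated level in aged and 0.498 times in young mice, with log2 fold changes of -1.04 ± 0.19 and -1.005 ± 0.17 and no overlap. Cd63, a tetraspanin of late endosomes and lysosomes, was called higher by 0.47 ± 0.15 in aged and 0.59 ± 0.13 in young mice, the aged call being lost without aged caerulein mouse 2 or aged untreated mouse 2 or 3 (0.40 to 0.53). A processed copy, Cd63-ps, drew 2020 counts beside 21693 for Cd63, so reads of the 2 may be split.

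Lamp2, a main structural protein of the lysosomal membrane that is needed for autophagosome clearance in mice, had 38.7, 38.6 and 35.5 CPM in aged caerulein mice, against 38.6 and 37.4 CPM in aged untreated mice. It had 34.7, 30.4 and 34.5 CPM in young caerulein mice, against 38.0, 40.0 and 44.1 CPM in young untreated mice. It was called lower in young mice, at -0.29 ± 0.10, but not in aged mice, where the groups overlapped, at -0.013 ± 0.12, and was at 0.21 in young and 0.60 in aged mice with library totals. The young call was lost without aged untreated mouse 2 or 3, young caerulein mouse 2 or 3 or young untreated mouse 3 (-0.32 to -0.24) and with mouse number as a block (-0.29). Lamp1, its close relative, was not called, at -0.19 ± 0.11 in aged and -0.08 ± 0.10 in young mice, although without young untreated mouse 2 it was called lower in aged mice at -0.26. Scarb2, the sorting receptor of beta-glucocerebrosidase, was not called, at 0.04 ± 0.12 and -0.09 ± 0.11.

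The lumen proteins also differed among themselves. Grn, whose product progranulin is cleaved to granulins in lysosomes (chr11:102430315-102437048, plus strand), had 99.7, 90.2 and 93.6 CPM in aged caerulein mice, against 66.5 and 53.1 CPM in aged untreated mice. It had 68.2, 76.3 and 63.3 CPM in young caerulein mice, against 55.0, 65.9 and 57.0 CPM in young untreated mice. It was called higher in aged mice, at 0.66 ± 0.15, and not in young mice, where the groups overlapped, at 0.22 ± 0.13. Hexa, the alpha subunit of beta-hexosaminidase, had 11, 9.70 and 11.4 CPM in aged caerulein mice, against 17.0 and 15.4 CPM in aged untreated mice. It had 10.8, 10.1 and 11.7 CPM in young caerulein mice, against 14.00, 22.1 and 14.4 CPM in young untreated mice. It was called lower, at -0.60 ± 0.19 in aged mice, where the value was 0.018 with library totals, and at -0.64 ± 0.17 in young mice. The aged Hexa call was lost without aged caerulein mouse 2 or aged untreated mouse 2 or 3 (-0.65 to -0.51).

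Psap and Npc2 were decided by 1 library. Psap, the precursor of the saposins that activate sphingolipid hydrolases, had 62.7, 67.1 and 75.8 CPM in aged caerulein mice, against 78.0 and 72.1 CPM in aged untreated mice. It had 75.8, 70.0 and 69.1 CPM in young caerulein mice, against 76.5, 361 and 73.0 CPM in young untreated mice. Apart from mouse 2, the libraries of all groups overlapped. The young log2 fold change was -1.25 ± 0.49 with that mouse and -0.11 ± 0.11 without it, neither of them called, while without young untreated mouse 1 or 3 it was called lower at -1.61 and -1.62. Npc2, the lumenal partner of Npc1, had 12.2 to 12.8 CPM in young caerulein mice, against 42.5 CPM in that mouse and 15.5 and 14.3 CPM in the other young untreated mice. It was called lower in young mice, at -0.95 ± 0.34, but was not called without that mouse, at -0.29 ± 0.13. The Npc2 call was also lost without aged untreated mouse 2 or 3 or any 1 young caerulein mouse (-0.96 to -0.92). In aged mice Npc2 was not called, at -0.43 ± 0.38, and was called lower without young untreated mouse 2, at -0.49 ± 0.12.

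**Figure D3:**
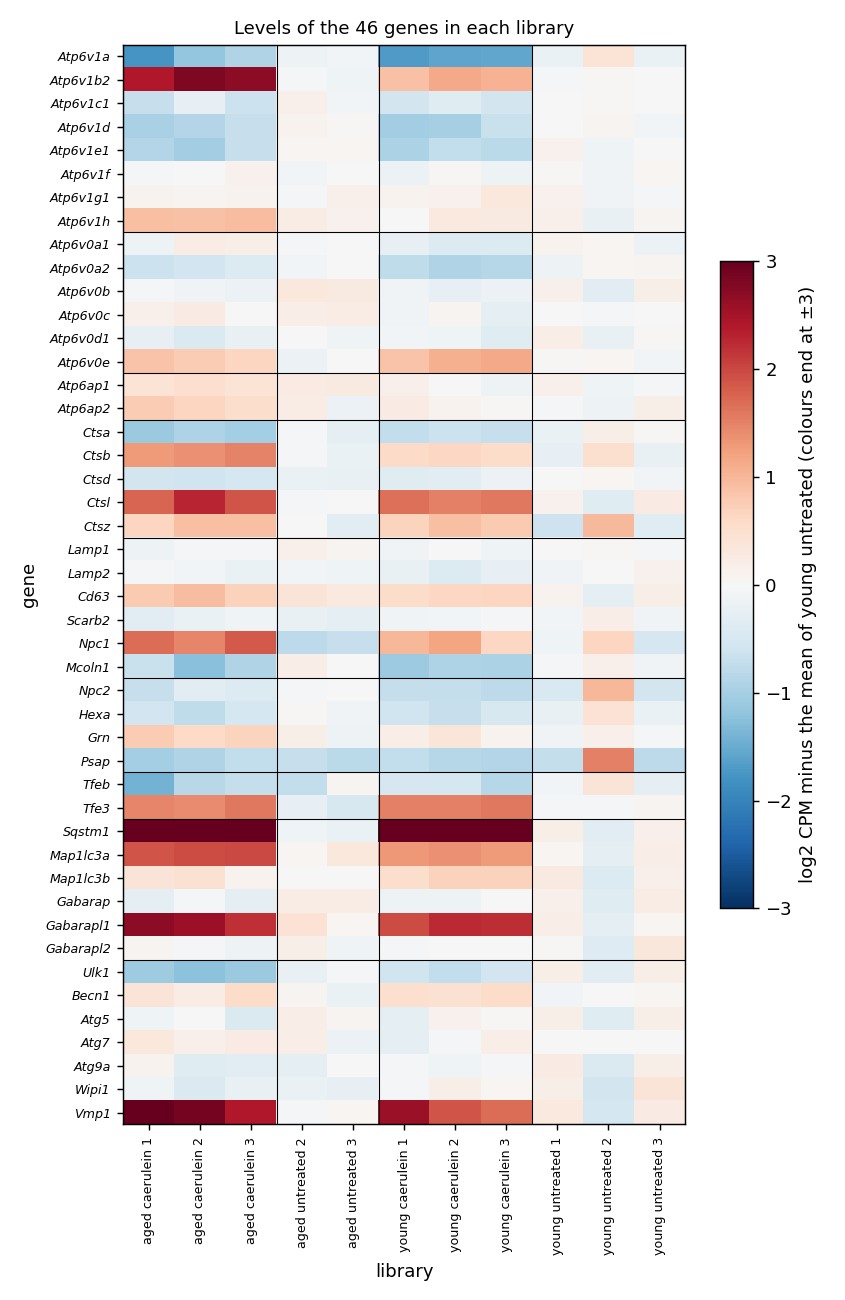
Log2 CPM of the 46 genes (rows, in the order of their roles) in the 11 libraries (columns) minus the mean of the 3 young untreated libraries, with red higher, blue lower and colours ending at ±3. The caerulein columns share the bands of Sqstm1, Gabarapl1, Vmp1, Ctsl and Atp6v1b2, and young untreated mouse 2 differs from its group in Psap, Npc2, Ctsz and Ctsb.

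Tfe3 and Tfeb encode related helix-loop-helix factors that enter the nucleus under lysosomal stress or starvation and bind an E-box element, CACGTG at its core, in many lysosomal genes. Tfe3 (chrX:7762560-7775202, plus strand) had 25.9, 24.9 and 28.2 CPM in aged caerulein mice, against 7.81 and 6.61 CPM in aged untreated mice. It had 26.71, 26.71 and 28.02 CPM in young caerulein mice, against 8.99, 9.11 and 9.78 CPM in young untreated mice. The groups were widely apart at both ages, and Tfe3 was called higher by 1.87 ± 0.13 in aged and 1.55 ± 0.10 in young mice. Tfeb (chr17:47737030-47792419, plus strand) was low in every library, with 1.91, 2.92 and 3.16 CPM in aged caerulein mice, against 3.11 and 5.58 CPM in aged untreated mice. It had 3.66, 3.64 and 2.86 CPM in young caerulein mice, against 4.95, 6.83 and 4.26 CPM in young untreated mice. The aged groups overlapped and the young groups did not. It was not called at either age, at -0.72 ± 0.32 and -0.66 ± 0.29, though it was called lower in aged mice without aged untreated mouse 2 (-1.05) or young untreated mouse 2 (-0.81) and in young mice without young untreated mouse 3 (-0.81). Transcript levels say nothing of whether these factors were in the nucleus.

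The extended palindrome TCACGTGA, which contains this core, was searched on both strands from 250 bases before to 50 bases after the start of each gene in RefSeq promoter sequences (GRCm38.p6), and 37 of the 46 genes had a record there. It was present in 6 of these 37 (16.2%) and in 304 of 27025 genes in the table (1.12%). The contained motif TCACGTG was present in 9 (24.3%) against 4.29% of genes, and the core CACGTG in 11 (29.7%) against 8.09%. The 46 genes were picked as genes of the kind in which this element is known, so nothing is read from these shares. The windows below show every copy of the palindrome in capitals for the 6 genes, shown so that the responses of genes sharing it can be set side by side, and are written 5′ to 3′ on the strand of the gene.
Atp6v1a: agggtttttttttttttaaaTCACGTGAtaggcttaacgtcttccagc
Ctsa: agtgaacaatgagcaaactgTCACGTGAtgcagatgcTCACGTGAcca
Ctsd: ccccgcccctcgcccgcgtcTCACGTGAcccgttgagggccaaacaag
Mcoln1: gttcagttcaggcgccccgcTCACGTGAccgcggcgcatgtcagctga
Atp6v0e: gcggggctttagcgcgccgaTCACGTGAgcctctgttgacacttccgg
Atp6v0d1: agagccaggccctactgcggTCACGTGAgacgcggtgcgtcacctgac

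The Ctsa window holds 2 copies. The starts used are those of the RefSeq records and can differ from the ends of the gene coordinates given above. The windows of Atp6v1a, Ctsa and Ctsd lie inside the coordinates of their genes, and those of Mcoln1, Atp6v0e and Atp6v0d1 span the 5′ ends of theirs. On GRCm38.p6 these windows lie at chr16:44139364-44139411 on the minus strand for Atp6v1a, chr2:164833740-164833787 on the plus strand for Ctsa, chr7:142387899-142387946 on the minus strand for Ctsd, chr8:3500453-3500500 on the plus strand for Mcoln1, chr17:26676378-26676425 on the plus strand for Atp6v0e and chr8:105566041-105566088 on the minus strand for Atp6v0d1. Of the 6 genes, Atp6v1a, Ctsa, Ctsd and Mcoln1 were called lower at both ages, Atp6v0e was called higher at both ages, and Atp6v0d1 was not called. Their median log2 fold change was -0.60 in aged and -0.50 in young mice, and that of the 31 genes with a record but no palindrome was -0.013 and -0.076. Atp6v1b2 and Npc1, both called higher at both ages, had no record and are in neither set. The genes were chosen by name, so no link between the palindrome and the response is read from these medians. Lamp1, which was not called at either age, has 4 copies of the core in 70 bases, in capitals here, at chr8:13159091-13159160 on the plus strand.
Lamp1: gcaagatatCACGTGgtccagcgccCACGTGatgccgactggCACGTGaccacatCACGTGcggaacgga
A match in these letters is a description and no measure of binding.

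The ATG8 proteins are coupled to lipid on the autophagosome membrane and bind cargo receptors such as p62, the product of Sqstm1. Sqstm1 (chr11:50199366-50210827, minus strand) had 1369, 1272 and 1897 CPM in aged caerulein mice, against 105 and 99.9 CPM in aged untreated mice. It had 1081, 1194 and 1051 CPM in young caerulein mice, against 129.7, 91.5 and 126 CPM in young untreated mice. The lowest caerulein library, at 1051 CPM, was far above the highest untreated one, at 129.7 CPM, and the log2 fold changes were 3.88 ± 0.24 in aged (14.7-fold) and 3.26 ± 0.20 in young mice (9.57-fold), the largest among the 46 genes at both ages.

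Gabarapl1, a member of the GABARAP branch of the family (chr6:129533160-129542346, plus strand), had 153.0, 142 and 109 CPM in aged caerulein mice, against 31.9 and 24.7 CPM in aged untreated mice. It had 92.0, 112 and 111 CPM in young caerulein mice, against 27.4, 19.6 and 24.9 CPM in young untreated mice. It was called higher by 2.25 ± 0.21 in aged and 2.14 ± 0.18 in young mice, without overlap. The LC3 gene Map1lc3a (chr2:155276297-155278073, plus strand) had 61.2, 63.7 and 65.0 CPM in aged caerulein mice, against 17.0 and 20.3 CPM in aged untreated mice. It had 40.3, 42.2 and 40.0 CPM in young caerulein mice, against 17.1, 13.6 and 18.9 CPM in young untreated mice. It was called higher by 1.76 ± 0.15 in aged and 1.31 ± 0.13 in young mice, again without overlap.

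Map1lc3b, whose product LC3B is the usual protein marker of autophagosomes, had smaller fold changes. It had 97.8, 104 and 81.3 CPM in aged caerulein mice, against 74.4 and 74.7 CPM in aged untreated mice. It had 108, 121 and 122 CPM in young caerulein mice, against 90.2, 56.9 and 83.3 CPM in young untreated mice. The libraries were apart at both ages, and the log2 fold change was called in young mice, at 0.61 ± 0.17, and not in aged mice, at 0.34 ± 0.19. Gabarap was not called, at -0.42 ± 0.17 in aged and -0.13 ± 0.15 in young mice. It had 72.2, 84.0 and 71.99 CPM in aged caerulein, 102.3 and 101.6 CPM in aged untreated, 79.0, 78.5 and 86.1 CPM in young caerulein and 97.8, 67.6 and 101.3 CPM in young untreated mice. Without young untreated mouse 2 it was called lower at both ages, at -0.49 in aged and -0.35 in young mice, and the young value was 0.42 with library totals. Gabarapl2 was not called, at -0.07 ± 0.19 and -0.04 ± 0.17.

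Of the genes of autophagosome formation, Vmp1, an endoplasmic reticulum protein that takes part in autophagosome closure (chr11:86583865-86683836, minus strand), was called higher at both ages. It had 152, 138 and 99.9 CPM in aged caerulein mice, against 18.3 and 19.4 CPM in aged untreated mice. It had 112, 69.5 and 60.0 CPM in young caerulein mice, against 22.8, 12.9 and 22.2 CPM in young untreated mice. The spread among treated mice was wide but no treated library approached an untreated one, and the log2 fold changes were 2.78 ± 0.34 and 2.07 ± 0.28. The miRNA gene Mir21a lies within Vmp1 on the same strand over 92 bases. It had 0 counts of its own, which does not show whether it was transcribed. The processed pseudogene Gm11478 overlaps Vmp1 on the same strand over 599 bases. It drew 856 counts beside 15785 for Vmp1, so reads of the 2 may be split.

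Ulk1, the kinase that starts autophagosome formation (chr5:110784488-110810097, minus strand), was called lower at both ages. It had 15.7, 13.99 and 15.0 CPM in aged caerulein mice, against 28.3 and 32.2 CPM in aged untreated mice. It had 21.7, 19.7 and 22.0 CPM in young caerulein mice, against 36.8, 26.0 and 36.9 CPM in young untreated mice. The log2 fold changes were -1.02 ± 0.16 in aged and -0.65 ± 0.14 in young mice. Becn1, a subunit of the lipid kinase complex that marks the forming membrane, was called higher by 0.44 ± 0.13 in aged and 0.50 ± 0.12 in young mice, the aged call being lost without aged caerulein mouse 3 (0.35) or aged untreated mouse 3 (0.32). Atg5 and Atg7 of the conjugation machinery, Atg9a, a lipid scramblase, and Wipi1, a phosphoinositide-binding protein, were not called at either age, with values between -0.31 and 0.23.

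Levels can be compared between genes only per length, for which the deposited FPKM values were used within a group. In aged caerulein mice the highest levels were 440 ± 97.1 FPKM for Sqstm1 (SD, n = 3), 91.1 ± 19.1 FPKM for Ctsl, 65.3 ± 11.2 FPKM for Gabarapl1 and 52.4 ± 1.80 FPKM for Map1lc3a. Sqstm1 and Ctsl were clear of the next gene, while Gabarapl1 (52.6 to 73.9) and Map1lc3a (50.3 to 53.7) overlapped. In aged untreated mice the order was Gabarap at 55.7 ± 0.883 FPKM (SD, n = 2), Lamp1 at 46.4 ± 1.96 FPKM, Ctsd at 35.1 ± 0.646 FPKM and Sqstm1 at 30.8 ± 1.47 FPKM, with no overlap between neighbours in these 2 libraries. The lowest aged untreated levels were 0.415 ± 0.0131 FPKM for Npc1, 0.771 ± 0.302 FPKM for Tfeb and 0.785 ± 0.101 FPKM for Tfe3. Gabarap and Lamp1 thus led in aged untreated mice, and the cargo receptor, a cathepsin and a pair of ATG8 genes led in aged caerulein mice.

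Between the ages, few of the 46 genes were called. In untreated mice 0 of 46 were called in aged against young mice by edgeR and 0 by DESeq2, 2 had an unadjusted p below 0.05, against 9.35% of all genes, and 0.0921% of all genes were called (0.0567% higher, 0.0354% lower). In caerulein mice 4 of 46 (8.7%) were called higher in aged mice and 0 lower, against 3.73% of all genes called in either direction (2.46% higher, 1.27% lower). The 4 were Atp6v1b2 at 1.63 ± 0.13, Ctsb at 0.80 ± 0.18, Atp6v1h at 0.71 ± 0.12 and Map1lc3a at 0.63 ± 0.13, and in each of them all 3 aged caerulein libraries were above all 3 young caerulein libraries. The calls of Ctsb and Map1lc3a were lost without any 1 of the 6 caerulein libraries (0.74 to 0.85 for Ctsb and 0.61 to 0.66 for Map1lc3a), and that of Ctsb also without either aged untreated mouse (0.81 each). Under library totals, Atp6v1h (0.60), Ctsb (0.69) and Map1lc3a (0.52) were not called. The 11 macrophage markers summed to 93.2 to 114 CPM in aged caerulein and 52.2 to 99.0 CPM in young caerulein mice, and their part in these differences was not tested.

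Leaving out young untreated mouse 2 changed the filter, the scaling and the estimate of spread of this comparison, although neither group holds it, and 10 genes were then called higher and 5 lower in aged caerulein mice. Of all genes, 14.2% were called (7.85% higher, 6.31% lower). The 6 added higher genes were Npc1 at 0.69, Vmp1 at 0.66, Atp6ap2 at 0.49, Grn at 0.42, and Atp6ap1 and Atp6v0a1 at 0.41 each. The 5 lower genes were Ulk1 at -0.52, Wipi1 at -0.36, Ctsa at -0.35, Map1lc3b at -0.34 and Ctsd at -0.29. In the authors' deposited table of this comparison, 10 of the 46 genes were higher and 3 lower at an adjusted p below 0.05, against 4.36% and 2.86% of the genes in that table.

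The difference of the caerulein responses, aged minus young, was called for 1 of the 46 genes and for 2 of 14113 genes in all (0.0142%, with 0.00709% in each direction). The called gene was Atp6v1b2, with a difference of 1.71 ± 0.19 on the log2 scale, which is a 3.28-fold larger fold change in aged mice. Its untreated levels were 17.9 to 19.2 CPM in aged and 19.3 to 20.3 CPM in young mice, so the difference lay in the caerulein libraries, at 105 to 139 CPM in aged and 36.4 to 43.5 CPM in young mice. The value stayed between 1.62 and 1.84 in the 18 alternatives run, but the call was lost in 7 of them, namely with library totals and without aged caerulein mouse 2 or 3, aged untreated mouse 2 or 3, or young caerulein mouse 1 or 3. Atp6v1b2 overlaps Slc18a1 on the opposite strand over 590 bases, and the 2 genes had 12377 and 358 counts in all libraries.

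**Figure D4:**
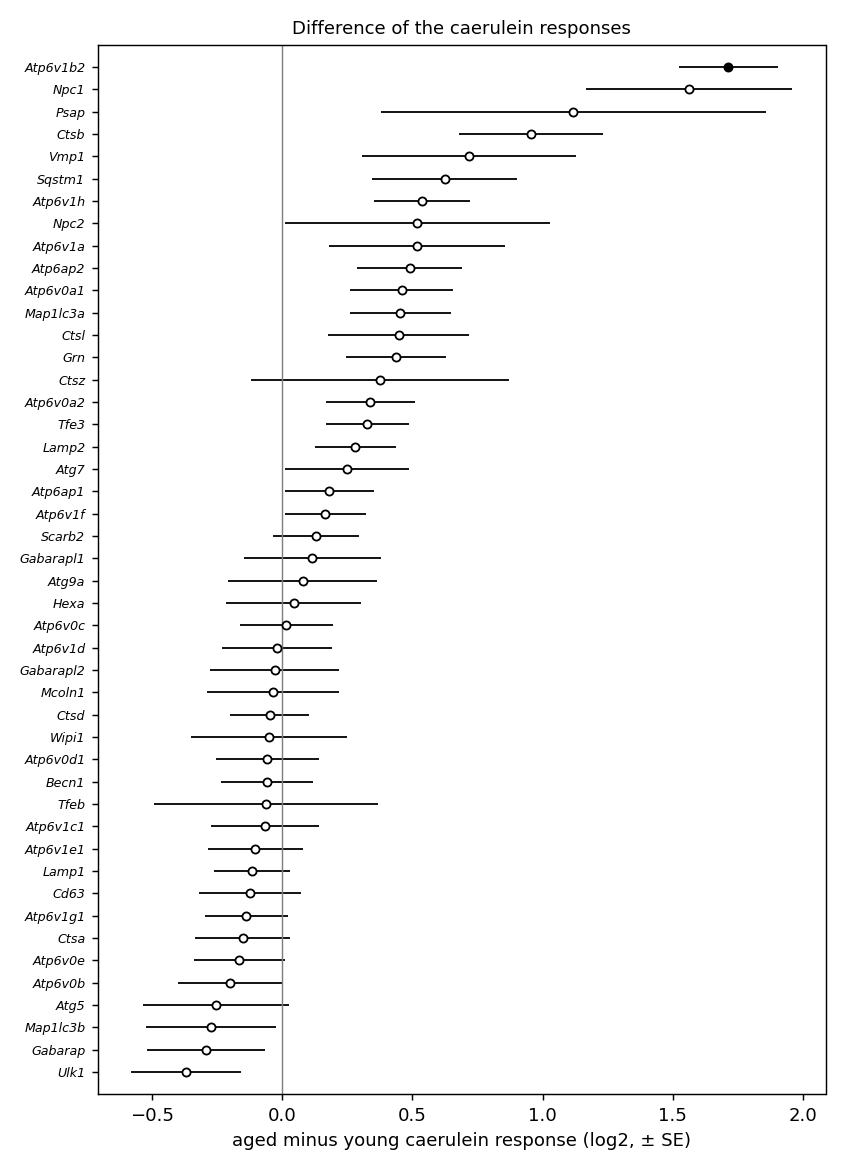
Difference of the caerulein responses, aged minus young (x axis, log2, ± SE), for the 46 genes sorted from highest to lowest; the filled point was called and open points were not. Atp6v1b2 lies highest at 1.71, Npc1 is next at 1.56 with a wider error, and most genes lie within 0.5 of 0.

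The other differences were not called with all libraries, although 9 of the 46 had an unadjusted p below 0.05, against 12.5% of all genes. DESeq2 called 3 of the 46, against 2.68% of all genes, and edgeR without young untreated mouse 2 called 4, against 2.29%. Npc1 was at 1.56 ± 0.40 with all libraries and at 1.14 ± 0.27, called, without that mouse. Ctsb was at 0.95 ± 0.28 and at 0.66 ± 0.15, called, without it. Atp6v1h was at 0.54 ± 0.18 and at 0.63 ± 0.15, called, without it. Psap, at 1.12 ± 0.74, was at -0.08 ± 0.15 without that mouse. The median difference of the 46 genes was 0.10, and 0.06 for all genes tested.

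Other genes of the same pathways, 196 genes in 9 lists drawn from general knowledge with earlier results of these data known, give the setting. Of these, 187 were tested. Genes named from these lists were picked for the smallest p in each direction. The adjusted p printed beside them therefore describe the picked genes and are no independent support. In aged mice 45 rose and 67 fell after caerulein, with a median log2 fold change of -0.30, and in young mice 46 rose and 78 fell, with a median of -0.40. The shares of all genes tested are given above. With library totals the lower counts were 17 in aged and 26 in young mice, and the higher count in aged mice was 68.

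On the TMM scale, lysosomal hydrolases and their activators were called lower more often than higher. Of 44 tested, 2 rose and 21 fell (47.7%) in aged mice and 4 rose and 24 fell (54.5%) in young mice. Of all genes tested, 27.0% were higher and 21.2% lower in aged and 27.5% and 24.7% in young mice. The lower counts of all lists together shrank with library totals, as given above, so this direction depends on the scaling. Neu1, lysosomal sialidase, fell by 1.13 ± 0.15 in aged mice (edgeR adjusted p = 8.16e-05) and by 1.20 ± 0.13 in young mice (adjusted p = 2.21e-05). Galc, which degrades galactosylceramide, fell by 2.51 ± 0.27 in young mice (edgeR adjusted p = 2.08e-05), from a low level, with 0.751 to 0.832 CPM in young caerulein mice against 4.20 to 4.95 CPM in young untreated mice. Ctsc, cathepsin C, which activates granule serine proteases, went the other way, at 139 to 229.7 CPM in aged caerulein mice against 30.1 and 30.8 CPM in aged untreated mice and 56.5 to 65.4 CPM in young caerulein mice against 21.5 to 29.3 CPM in young untreated mice. Its rise was 2.55 ± 0.22 in aged (edgeR adjusted p = 5.02e-06) and 1.30 ± 0.18 in young mice (adjusted p = 0.000149). Ctsc was higher in aged than in young caerulein mice by 1.54 ± 0.18 (edgeR adjusted p = 0.00203).

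Membrane proteins and sorting genes showed both directions. Among other lysosomal membrane proteins 4 rose and 11 fell of 25 tested at each age. Lmbrd1, a lysosomal protein of cobalamin export, rose by 1.15 ± 0.16 in aged (edgeR adjusted p = 0.000118) and 1.08 ± 0.13 in young mice (adjusted p = 5.61e-05). Among 10 sorting genes 4 rose and 5 fell in aged and 3 rose and 6 fell in young mice. Gnptab, the enzyme that starts the mannose 6-phosphate tag of hydrolases, fell by 1.86 ± 0.16 in aged (edgeR adjusted p = 3.35e-06) and 1.73 ± 0.14 in young mice (adjusted p = 2.45e-06). Gga3, an adaptor for the receptors of that tag, rose by 1.09 ± 0.12 in aged (edgeR adjusted p = 1.90e-05) and 1.11 ± 0.10 in young mice (adjusted p = 4.83e-06).

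Of 18 autophagy initiation and nucleation genes, 10 rose and 2 fell at each age. Of all genes tested, 27.0% were higher in aged and 27.5% in young mice. Nrbf2, a component of the Becn1 lipid kinase complex, had 34.4 to 37.6 CPM in aged caerulein mice, against 4.93 and 6.22 CPM in aged untreated mice, and 14.6 to 20.4 CPM in young caerulein mice, against 4.16 to 4.78 CPM in young untreated mice. It rose by 2.69 ± 0.18 in aged (edgeR adjusted p = 8.44e-07) and 1.90 ± 0.15 in young mice (adjusted p = 2.02e-06), and was higher in aged than in young caerulein mice by 1.09 ± 0.14 (adjusted p = 0.00286). Wipi2, which recruits the conjugation machinery, rose by 2.44 ± 0.15 in young mice (edgeR adjusted p = 2.38e-07). Among 9 conjugation genes 4 rose and 2 fell in aged and 4 rose and 4 fell in young mice. Of 15 other autophagy receptors, 5 rose and 4 fell in aged and 7 rose and 4 fell in young mice. The largest of these changes in young mice was that of the chaperone partner Bag3, at 3.81 ± 0.27 (edgeR adjusted p = 7.96e-07), with 108 to 212 CPM in young caerulein mice against 9.15 to 11.6 CPM in young untreated mice.

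**Figure D5:**
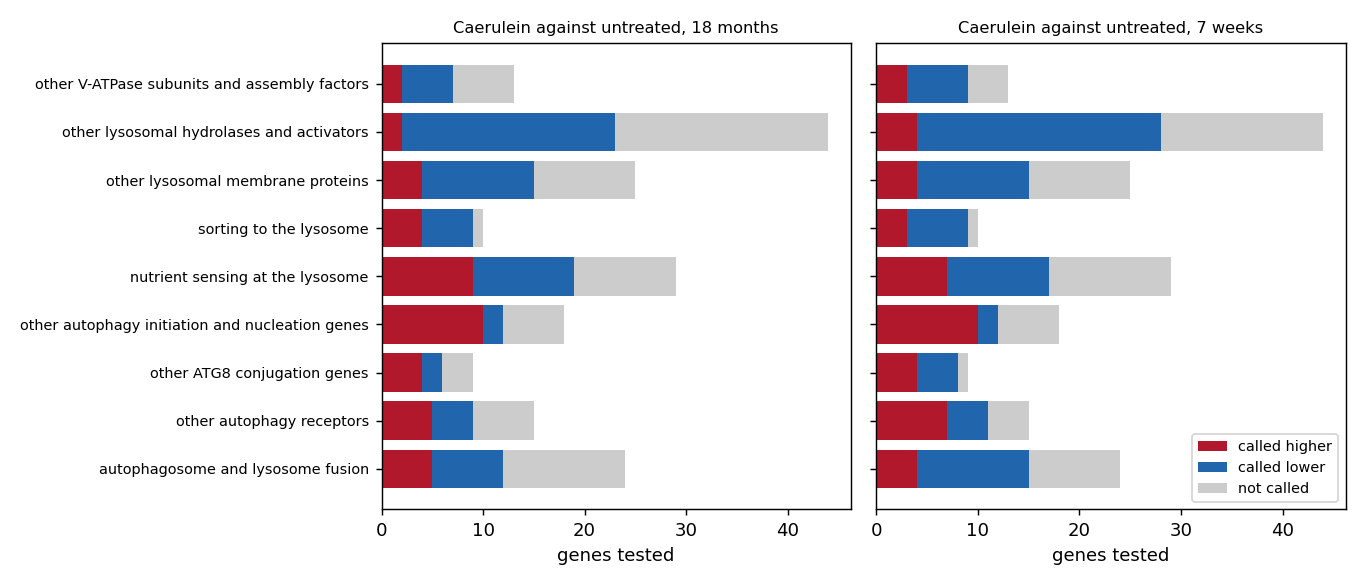
Number of genes tested (x axis) in each of the 9 lists of other pathway genes that were called higher, called lower or not called after caerulein, in aged mice (left) and young mice (right). Hydrolases show 21 and 24 genes called lower, and initiation and nucleation genes show 10 called higher at each age.

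Other genes of the pump showed both directions, with 2 risen and 5 fallen of 13 tested in aged and 3 risen and 6 fallen in young mice. Atp6v0a4, an a subunit isoform typical of kidney and inner ear, had 5.33 to 7.37 CPM in aged caerulein mice, against 0.271 and 0.420 CPM in aged untreated mice, and 2.29 to 2.76 CPM in young caerulein mice, against 0.0400 to 0.633 CPM in young untreated mice. It rose by 4.21 ± 0.75 in aged (edgeR adjusted p = 0.000808) and 3.46 ± 0.64 in young mice (adjusted p = 0.000999). Vma21, an assembly chaperone of V0, fell by 1.44 ± 0.16 in aged (edgeR adjusted p = 3.29e-05) and 0.94 ± 0.15 in young mice (adjusted p = 0.00032). Of 29 nutrient-sensing genes, 9 rose and 10 fell in aged and 7 rose and 10 fell in young mice. Sesn2, a leucine sensor induced by stress, rose by 3.71 ± 0.26 in young mice (edgeR adjusted p = 7.94e-07), while its relative Sesn1 fell by 2.18 ± 0.28 in aged (adjusted p = 7.92e-05) and 2.00 ± 0.25 in young mice (adjusted p = 6.55e-05). Of 24 genes of autophagosome and lysosome fusion, 5 rose and 7 fell in aged and 4 rose and 11 fell in young mice, with Arl8a, which moves lysosomes along microtubules, up by 1.94 ± 0.13 and 1.39 ± 0.11 (edgeR adjusted p = 9.25e-07 and 1.95e-06) and Vps41, a tethering subunit, at -1.36 ± 0.12 and -1.11 ± 0.11 (adjusted p = 6.29e-06 and 1.16e-05).

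Between the ages 11 of the 187 other genes (5.88%) were higher and 4 (2.14%) lower in aged than in young caerulein mice. Of all genes, 2.46% were higher and 1.27% lower. Without any 1 library the higher count ranged from 3 to 17 and the lower count from 2 to 16. The lowest higher count was that without aged caerulein mouse 2, and the highest counts were those without young untreated mouse 2. Of all genes, 0.776% to 7.85% were then higher and 0.427% to 6.31% lower. The highest of these shares, 7.85% and 6.31%, were also those without young untreated mouse 2. Fnip1, a partner of folliculin in lysosomal nutrient sensing, was higher by 1.15 ± 0.19 (edgeR adjusted p = 0.00866), and Epg5, a fusion tether, by 0.92 ± 0.17 (adjusted p = 0.0131). Calcoco1, a receptor for endoplasmic reticulum autophagy, was lower by 0.86 on the log2 scale, at -0.86 ± 0.12 (edgeR adjusted p = 0.00414). In untreated mice 0 of the 187 were called by edgeR and 0 by DESeq2, and 12 had an unadjusted p below 0.05, against 9.35% of all genes. By edgeR the difference of the responses was called for 0 of the 187, against 0.0142% of all genes. DESeq2 called it for 3 (2 higher, 1 lower), against 2.68% of all genes. An unadjusted edgeR p below 0.05 was found for 33, against 12.5% of all genes.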

How the data were processed

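RNA of whole pancreas was captured by poly(A), per the labels' protocols. Per the submitters' processing notes, the tools were HISAT2 2.0.5 and featureCounts 1.5.0-p3 and the build was mm10. Whether counting used strand, and which gene annotation it used, is not given in the sources used here. Tables deposited by the authors hold whole-number read counts, FPKM values, and the authors' log2 fold changes with adjusted p-values for 4 comparisons. FPKM served only to compare levels between genes. The counts, not the FPKM, entered every test.

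Genes were filtered with filterByExpr (minimum count 10), scaled by TMM and fitted in edgeR 4.0.16 (R 4.3.3) with 4 group means over 11 libraries. Quasi-likelihood F tests gave 5 comparisons, adjusted by Benjamini-Hochberg over 14113 genes, with calls at an adjusted p below 0.05. DESeq2 1.42.0, other filters and scalings, mouse number as a block and each library left out were alternatives. Levels are TMM-scaled CPM. Deviations of young caerulein and young untreated mice of the same number correlated at 0.106 to 0.149 in all 3 pairs. Aged untreated mouse 2 and young caerulein mouse 2 reached 0.163, and mice of different number were not compared. No label names the numbers as pairs, so these values do not show a pairing. Blocked values stand beside the young calls they change.

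The 46 genes, the other lists and the marker lists were chosen with earlier results of these data known. Genes given in every library were the highest and lowest of each role at each age and the 4 with the largest differences of responses. Also given were 7 further genes, known from work on pancreatitis or as the family regulator. Gabarapl1, Map1lc3a and Atp6v1h were added after their values were seen. Up to 2 genes with the smallest p in each direction per list could be named for the other pathway genes. Motifs and windows were read from RefSeq promoter sequences by script.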

Additional observations from a re-analysis of the deposited data

Results flagged for a closer look

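The caerulein response of Atp6v1b2 differed between the ages by 1.71 ± 0.19 on the log2 scale, aged minus young (edgeR's test of the difference itself, over all genes tested). It was singled out because that test was passed, as it was for 1 other gene in the whole table, Dtx4. The gene belongs to a list chosen with this result known, and the call was lost in 7 of 18 alternatives.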

How the results depend on the processing

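The numbers of the 46 genes called higher and lower after caerulein moved most with library totals in place of TMM factors, to 24 and 1 in young mice and 26 and 1 in aged mice. With library totals they were 1 and 1 between the ages in caerulein mice, against 0.701% and 0.822% of all genes. They were 0 for the difference of the responses, which was called for 0 of all genes. The other pathway genes then gave 26 lower in young mice, 68 higher and 17 lower in aged mice, and 1 higher between the ages in caerulein mice. With that scaling 15 of 26 negative young values and 16 of 23 negative aged values turned positive. Of those called under either scaling, the young ones were Atp6v1c1 0.000551, Atp6v0a1 0.14, Atp6v0b 0.35, Ctsd 0.19, Lamp2 0.21, Gabarap 0.42, Gabarapl2 0.51, Atg5 0.49 and Atg9a 0.44, and the aged ones were Atp6v1c1 0.045, Atp6v0a2 0.12, Atp6v0b 0.22, Ctsd 0.27, Lamp2 0.60, Hexa 0.018, Gabarapl2 0.53, Atg9a 0.58 and Wipi1 0.58. The shift follows from the construction of that scaling, which moved the median of all genes. Of the calls after caerulein, 11 of 13 higher calls in young mice and 12 of 15 in aged mice held in all 19 settings, against 1 of 13 and 1 of 11 lower calls (9 and 6 with library totals set aside).

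Between the ages in caerulein mice, the 46 genes gave 7 higher and 1 lower with DESeq2, against 7.14% of all genes called. They gave 8 and 2 with only the groups compared, against 13.6% of all genes called. With a minimum count of 50 they gave 6 higher and 1 lower, against 6.73%. The other pathway genes gave 17 higher and 10 lower with only the groups compared. They gave 6 and 2 with the replicate block, where 2.44% of all genes were called. Without a filter on low counts, 2 of the 46 genes and 4 other genes were lower and 1 other gene higher between untreated mice. Of all genes, 2.35% were lower and 0.266% higher. Without this filter the difference of the responses was called higher for 3 of the 46 genes and 7 others, against 2.02% of all genes. With DESeq2 it was called higher for 3 and 2, with 1 other gene lower, against 2.68% of all genes called. Leaving out 1 library gave 7 to 16 lower calls in aged mice, and between the ages in caerulein mice 2 to 10 higher and 0 to 5 lower calls among the 46 genes and 3 to 17 and 2 to 16 among the others. For the difference it gave 0 to 4 and 0 to 2, against 0% to 2.29% of all genes called. Of all genes, 12.6% to 27.6% were lower in aged mice. Between the ages in caerulein mice, 0.776% to 7.85% were higher and 0.427% to 6.31% lower. Why the counts moved in the settings of this paragraph was not tested.

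Across all groups, 6 of 15 same-number correlations of deviations exceeded 0.1 (range -0.207 to 0.163). With the replicate block, 14 and 10 of the 46 genes were called higher and lower in young mice, against 48.7% of all genes called. In aged mice 15 and 9 of the 46 genes were called, against 45.5%. The block changed no young call among them other than those of Atp6v0a1, Ctsd, Lamp2 and Ctsz. In aged mice, where the same-number correlations were 0.00513 and 0.13, it ended the calls of Ctsd (-0.34), Cd63 (0.47) and Hexa (-0.55). It also gave a call for Ctsz (1.15). The authors' deposited tables had the same sign as the values here for 44 of 46 genes in young and 46 of 46 in aged mice.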
